A study of Rattus norvegicus with 12 samples.

Results

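The natriuretic peptide system was followed at the level of mRNA through 8 genes, named by symbol: the peptide genes Nppa, Nppb and Nppc, the receptor genes Npr1, Npr2 and Npr3, and the genes of the prohormone-cleaving proteases Corin and Furin. All 8 were found among the 21239 genes with counts. RNA-seq was done on 12 libraries of rat heart tissue labelled as left atrium, with 3 libraries in each of 4 groups. All rats were males, 14 weeks old at purchase, and each was dosed for 4 weeks. The WKY group held Wistar-Kyoto rats, the normotensive control strain, given saline at 7.5 ml/kg/day. The SHR group held spontaneously hypertensive rats, an inbred strain with high blood pressure, given the same saline. The ARB group received valsartan, an angiotensin receptor blocker, at 30 mg/kg/day, and the ARNI group received sacubitril/valsartan, which joins valsartan to an inhibitor of the peptide-degrading enzyme neprilysin, at 60 mg/kg/day. In ARB and ARNI the labels join the word for the WKY strain to an SHR phenotype, and these rats were treated as SHRs in keeping with the study's methods. For the 6 saline libraries, the strain words of the title contradict the library name given beside them. These libraries were grouped by name, and if the strain words were right, every sign of SHR against WKY would turn. WKY and SHR also differ as strains, so a difference between them cannot be told apart from a difference in blood pressure.

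Nppa encodes ANP and Nppb encodes BNP, hormones that heart muscle cells make as prohormones and release when the chambers are stretched. In the adult heart Nppa is a gene of the atria, with low mRNA in the ventricles, and Nppb is made in both. Nppc encodes CNP, which is made mainly by vessels, bone and brain. ANP and BNP act through NPR1 and CNP through NPR2, receptors that make cyclic GMP, whereas NPR3 takes the peptides into the cell for removal. Corin cleaves proANP, and furin, a convertase of the secretory pathway, cleaves proBNP and proCNP.

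The libraries did not all carry the marker genes of the labelled chamber. Myl7, the light chain of atrial myosin, stood at 15.9, 3.30 and 0.889 CPM (counts per 1000000 counts of the library) in the WKY libraries and at 9.67 CPM in ARNI replicate 2, while Myl2, its ventricular counterpart, stood at 3737, 3776, 3489 and 4161 CPM in the same 4 libraries. In SHR replicate 2 and ARB replicate 3, Myl2 had 0.513 and 0.50 times the count of Myl7. In the remaining 6 libraries (SHR replicates 1 and 3, ARB replicates 1 and 2, ARNI replicates 1 and 3) the ratio was under 0.1. Summed over 7 atrial markers, WKY libraries held 17.6 to 38.6 CPM, ARNI replicate 2 held 46.2 CPM and the remaining 8 libraries held 9764 to 24801 CPM, although 2 genes of that list did not follow the others: Kcna5 was lower in those 8 libraries than in most of the 4, and Bmp10 was at 1.02 CPM in SHR replicate 3 against 140 to 1741 CPM in the other 7 of the 8. The summed mesothelial markers also separated the groups, at 54.8 to 72.8 CPM in WKY against 187 to 407 CPM in SHR, with Wt1 alone of its 5 genes overlapping. The summed smooth muscle markers stood at 238 to 302 against 129 to 201 CPM, through Myh11, Tagln and Rgs5, while Acta2, Cnn1 and Lmod1 of that list overlapped. Adipocyte markers were highest in ARB replicate 2 (462 CPM) and ARNI replicate 3 (541 CPM). Chamber, strain and group therefore cannot be told apart in the comparison of SHR with WKY. In such bulk samples fewer cells of a type and less RNA per cell cannot be told apart either. Library totals ran from 11252361 to 15823525 expected counts, with the 3 WKY libraries lowest at up to 11730665, so that 3 reads correspond to 0.190 to 0.267 CPM.

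Nppa and Nppb are neighbours on chromosome 5 in the GRCr8 assembly, and their promoters are shown because they carry the letters by which heart transcription factors are known to act on both genes. RefSeq promoter windows, from 250 bases before to 50 bases after the start of the gene, were at hand for 6 of the 8 genes and not used for Npr2 and Furin. Capitals mark the letters TGATAA or AGATAA (read by GATA factors), CATTCC (MCAT, read by TEAD factors) and AAGTG (NKE, read by NKX2-5), each on either strand. The windows lie at chr5:163711934-163712233 (Nppa) and chr5:163699758-163700057 (Nppb), both on the plus strand of GRCr8.
Nppa: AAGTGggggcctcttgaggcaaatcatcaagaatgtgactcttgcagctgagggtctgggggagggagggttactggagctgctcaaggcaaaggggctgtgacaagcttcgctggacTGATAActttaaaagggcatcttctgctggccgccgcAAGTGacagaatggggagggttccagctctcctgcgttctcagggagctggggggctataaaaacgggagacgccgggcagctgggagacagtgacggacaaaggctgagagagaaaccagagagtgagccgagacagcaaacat
Nppb: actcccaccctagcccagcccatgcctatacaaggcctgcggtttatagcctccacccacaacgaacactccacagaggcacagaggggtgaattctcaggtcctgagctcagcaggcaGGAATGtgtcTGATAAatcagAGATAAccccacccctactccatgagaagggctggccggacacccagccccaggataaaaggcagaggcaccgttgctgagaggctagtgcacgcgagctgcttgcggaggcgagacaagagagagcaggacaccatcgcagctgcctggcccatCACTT
In the Nppa window TGATAA began at -132 relative to the start, and AAGTG began at -250 and -95. The Nppb window held TGATAA at -121 and AGATAA at -110, with CATTCC on the reverse strand at -131 and AAGTG on the reverse strand at 45. A GATA match occurred in 18.9% of 33469 rat promoter windows of this length and at least 2 such matches in 3.13%, MCAT in 14.2% and NKE in 46.2%. AGGTGT, a site read by T-box factors, occurred in 13.6% of windows and in none of the 6 shown or searched here. The CArG box, searched only as the exact letters CC, then 6 letters of A or T, then GG, occurred in 1.64% of windows. None of the 6 windows held this exact form either, and forms with a mismatch were not searched for. Of the windows not printed, Npr3 held AAGTG on the reverse strand at 36, and those of Nppc, Npr1 and Corin held none of the 5 motifs. Such matches are letters in a window and say nothing of binding in these libraries.

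Nppa, Npr3 and Corin were the genes of the system that were higher in SHR than in WKY at the thresholds used for differentially expressed genes (DEGs; a log2 difference of 1 or more in size with an adjusted p not above 0.05). These were 3 of the 7 genes tested, where 8.89% of all 13794 genes tested were DEGs (5.54% higher and 3.35% lower). With the limit on p alone 5 of 7 passed, the other two being Furin, which was higher, and Npr2, which was lower, against 20.6% of all genes (12.3% higher and 8.26% lower). The libraries of SHR and WKY did not overlap for these 5 genes, which was the case for 49.5% of all genes tested (33.7% higher and 15.9% lower). Nppb and Npr1 did not pass, and Nppc had too few reads to be tested. Neither valsartan nor sacubitril/valsartan was accompanied by a change that passed the test in any of the 7 genes.

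**Figure D1:**
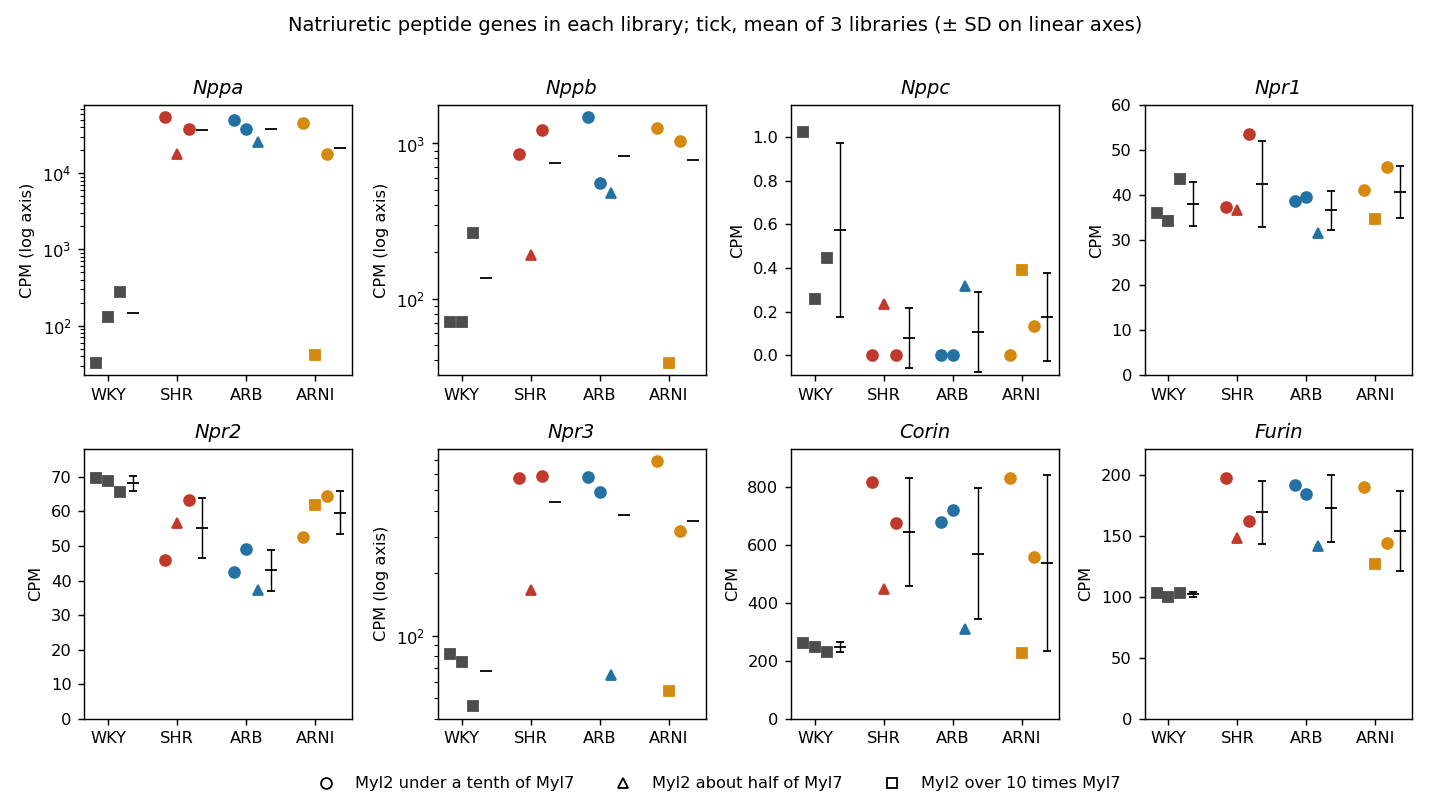
CPM of the 8 natriuretic peptide genes (vertical axes, logarithmic for Nppa, Nppb and Npr3) in the 12 libraries by group, with a tick at the mean of 3 libraries and bars of 1 SD on linear axes. Marker shape gives the count of Myl2 relative to Myl7; ARNI replicate 2 (square) lies with the WKY libraries for Nppa, Nppb, Npr3 and Corin.

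The levels of Nppa, the ANP gene (NCBI gene 24602), were 32.5, 129 and 276 CPM in the 3 WKY libraries. In SHR they were 53632, 17946 and 38417 CPM, which is 5.36%, 1.79% and 3.84% of all reads of the library. Nppa was higher in every SHR library than in any WKY library, and its means were 36665 ± 17907 CPM in SHR and 146 ± 123 CPM in WKY (SD, n = 3 each). Between the groups the log2 fold change was 7.82 (SE 1.02, 95% interval 5.38 to 10.25), a ratio of 225 (41.6 to 1220), with an edgeR adjusted p of 0.00703. Leaving out SHR replicate 2, in which both myosin light chains were read, gave 8.14, and leaving out WKY replicate 2 gave 7.72 with an edgeR adjusted p of 0.052. Within the 4 libraries in which Myl2 exceeded Myl7 over 10 times, Nppa ranged from 32.5 to 276 CPM, and within the 6 in which the ratio of Myl2 to Myl7 was under 0.1 it ranged from 18042 to 53632 CPM. With a score of atrial minus ventricular markers as a covariate in a fit of all 12 libraries the difference was 2.76 (edgeR adjusted p = 0.46), a value that rests on extrapolation because the scores of WKY and SHR do not overlap.

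Nppb, the BNP gene (25105), stood at 70.6, 70.8 and 265 CPM in WKY. SHR libraries had 852, 190 and 1213 CPM. SHR replicate 2 thus lay below WKY replicate 3, so the groups overlapped. Their log2 fold change of 2.29 (SE 0.79, interval 0.41 to 4.18) did not pass the test (edgeR adjusted p = 0.0803). Without SHR replicate 2 it was 2.74 with an edgeR adjusted p of 0.013, and DESeq2 gave 2.28 with an adjusted p of 0.045, so the call rests on that library and on the test. As for Nppa, ARNI replicate 2 held the lowest level among the treated libraries, at 38.5 CPM.

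Reads of Nppa per read of Nppb, which do not depend on how libraries are scaled, were 0.460, 1.82 and 1.04 in WKY. In SHR the ratios were 62.9, 94.6 and 31.7, so SHR replicate 2, the lowest SHR library for either gene, had the highest ratio. ARB libraries had 33.7, 67.5 and 53.2, and ARNI libraries had 36.2, 1.06 and 17.4. The mean log2 ratio was 5.84 ± 0.80 in SHR and -0.07 ± 0.997 in WKY (SD, n = 3 each), and the difference of 5.91 had a two-sided exact permutation p of 0.1, the smallest that 3 against 3 libraries allow (0.267 after Benjamini-Hochberg adjustment over 4 comparisons). For the other comparisons the differences were -0.21 (ARB against SHR, exact permutation p = 0.8), -2.71 (ARNI against SHR, exact permutation p = 0.2) and -2.502 (ARNI against ARB, exact permutation p = 0.2).

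Nppc, the CNP gene (114593), was close to the limit of detection. WKY libraries held 12, 3 and 5 of its reads, SHR libraries 0, 3 and 0, ARB libraries 0, 0 and 4, and ARNI libraries 0, 5 and 2. All WKY libraries had a higher CPM than any SHR library, from 0.261 to 1.02 against 0 to 0.237 CPM, but most of these values are within a few reads of the limit that 0 reads allow. Without the filter on low counts the adjusted p of SHR against WKY was 0.130 in edgeR and in DESeq2. By light chain, the 4 libraries with Myl2 over 10 times Myl7 held 25 reads between them, the pair with both light chains 7, and the other six 2.

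Npr1, the receptor gene of ANP and BNP (24603), was read at a similar level throughout. It stood at 36.1, 34.3 and 43.6 CPM in WKY, and at 37.4, 36.7 and 53.6 CPM in SHR. The groups overlapped, with a log2 fold change of 0.02 (SE 0.16, edgeR adjusted p = 0.946). Its 95% interval of -0.36 to 0.39 bounds the ratio between 0.780 and 1.31. Over all 12 libraries Npr1 ranged from 31.7 to 53.6 CPM, and its range in the 6 libraries with a light chain ratio under 0.1 (37.4 to 53.6 CPM) overlapped that in the 4 with Myl2 over 10 times Myl7 (34.3 to 43.6 CPM).

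Npr2, the receptor gene of CNP (116564), was the gene of the system that was lower in SHR. WKY libraries held 69.8, 68.9 and 65.7 CPM. SHR libraries held 45.8, 56.5 and 63.2 CPM, all below WKY. This is a log2 fold change of -0.44 (SE 0.12, interval -0.73 to -0.15; edgeR adjusted p = 0.0459), a ratio of 0.736. The call is a narrow one: without TMM scaling the value was -0.30 and the edgeR adjusted p was 0.12, and with the replicate number as a block the edgeR adjusted p was 0.09. With the marker score as a covariate it was -0.22 (edgeR adjusted p = 0.53).

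Npr3, the clearance receptor gene (25339), was at 81.6, 75.0 and 45.8 CPM in WKY. In SHR it was at 575, 165 and 586 CPM, with every library above WKY. Means were 442 ± 240 CPM in SHR and 67.5 ± 19.1 CPM in WKY (SD, n = 3 each). Npr3 thus differed by a log2 fold change of 2.56 (SE 0.48, interval 1.41 to 3.70), a ratio of 5.88, with an edgeR adjusted p of 0.0181. With the replicate number as a block it was 2.42 with an edgeR adjusted p of 0.059, and with the marker score as a covariate it turned to -1.04 (edgeR adjusted p = 0.30). ARNI replicate 2 and ARB replicate 3, at 54.1 and 64.5 CPM, lay within the range of WKY.

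Corin, the gene of the protease that activates proANP (289596), stood at 263, 249 and 229 CPM in WKY. SHR libraries had 816, 446 and 675 CPM. All SHR libraries were above WKY, with means of 646 ± 187 against 247 ± 16.8 CPM (SD, n = 3 each). The log2 fold change was 1.25 (SE 0.21, interval 0.75 to 1.74), a ratio of 2.37, with an edgeR adjusted p of 0.0134. With the marker score as a covariate it was -0.28 (edgeR adjusted p = 0.46), and a fit of all 12 libraries without the score gave 1.24 with an edgeR adjusted p of 0.078.

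Furin (54281) was at 103, 99.5 and 103 CPM in WKY. In SHR it was at 198, 148 and 162 CPM, again with no overlap. The log2 fold change of 0.60 (SE 0.13, interval 0.30 to 0.90), a ratio of 1.51, passed the limit on p (edgeR adjusted p = 0.0242) but lay below the fold limit of a DEG. Blocked by replicate number the edgeR adjusted p was 0.063, and with the marker score as a covariate the value was 0.27 (edgeR adjusted p = 0.48).

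The calls of Npr3, Corin, Furin and Npr2 each depended on having all 3 WKY libraries. Leaving out any of them gave edgeR adjusted p values of 0.070 to 0.078 for Npr3, 0.062 to 0.071 for Corin, 0.091 to 0.10 for Furin and 0.13 to 0.14 for Npr2, while the log2 fold changes kept their direction. Such a loss was not particular to these genes. Over all genes tested, 2837 passed the limit on p with all libraries, against 496, 415 and 418 without WKY replicates 1, 2 and 3. Leaving out SHR replicate 1 gave an edgeR adjusted p of 0.057 for Npr3 and 0.082 for Npr2. Without SHR replicate 2 the log2 fold changes were 2.94 for Npr3, 1.43 for Corin, 0.66 for Furin and -0.50 for Npr2, each past the limit on p in edgeR.

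**Figure D2:**
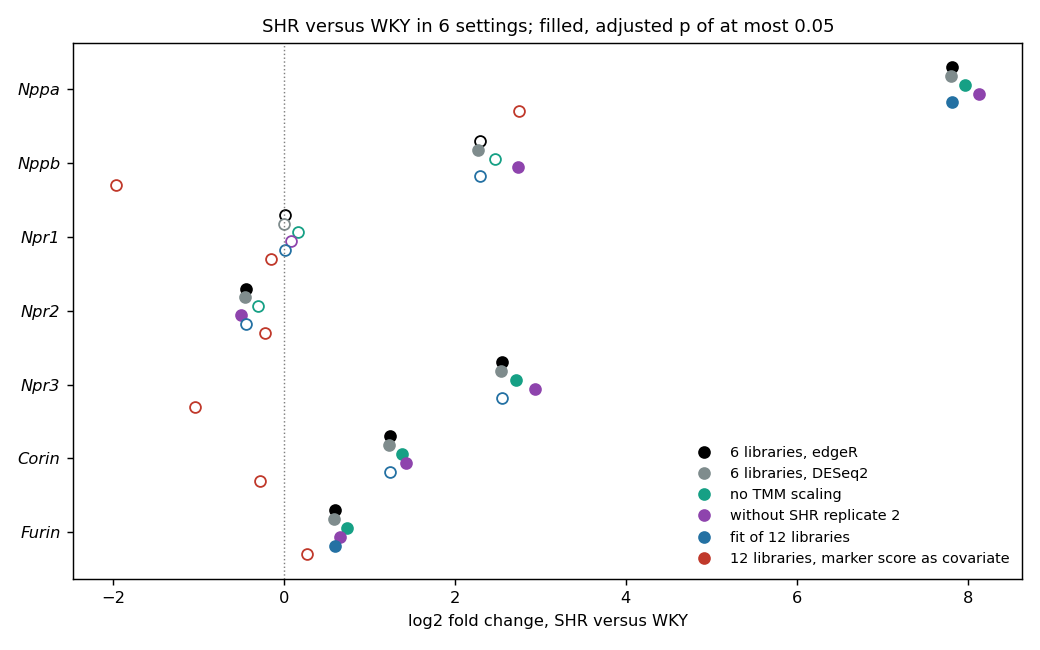
Log2 fold changes of SHR versus WKY (horizontal axis) for the 7 tested genes in 6 settings of the fit, filled where the adjusted p is at most 0.05. The values of Nppb, Npr3 and Corin lie below 0 with the marker score as covariate and above 0 in the other settings drawn.

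**Figure D3:**
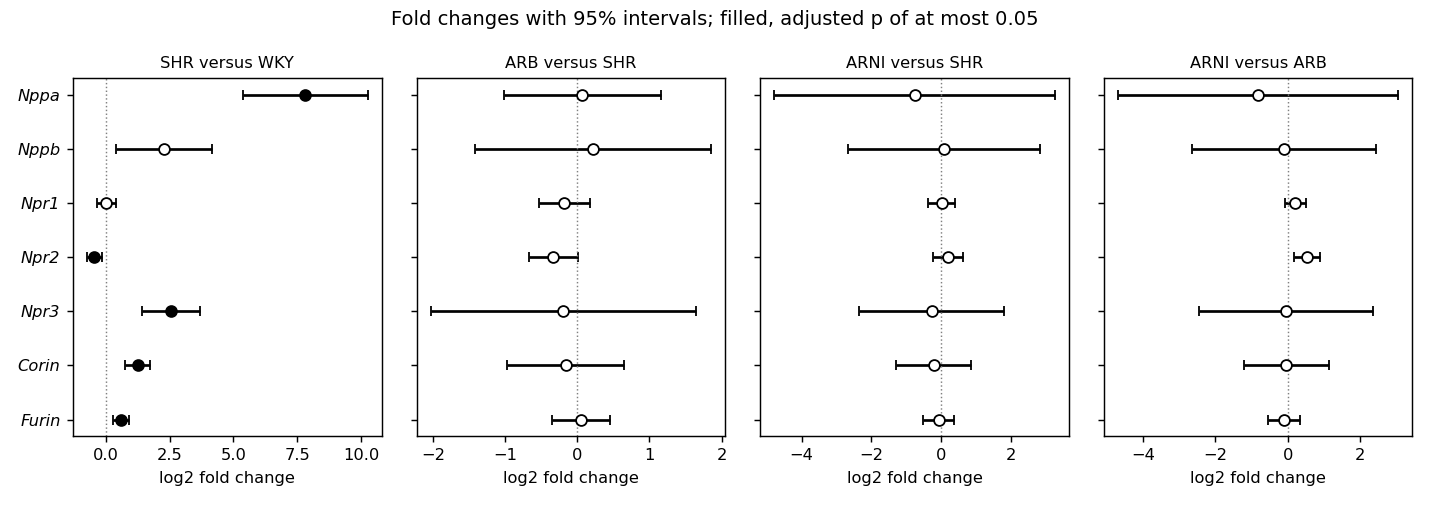
Log2 fold changes (horizontal axis) of the 7 tested genes in each of the 4 comparisons, with 95% intervals as bars and filled points where the adjusted p is at most 0.05 (horizontal scales differ between panels). In SHR versus WKY the intervals of Nppa, Nppb, Npr3, Corin and Furin lie above 0 and that of Npr2 lies below; in the other comparisons every interval includes 0 except that of Npr2 in ARNI versus ARB.

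In each of SHR, ARB and ARNI, Nppa, Nppb, Npr1, Npr3, Corin and Furin were also lowest in the library with the lowest marker score. For Npr1 the margin in SHR was narrow, at 36.7 CPM in replicate 2 against 37.4 CPM in replicate 1. Corin was at 557 to 832 CPM in the 6 libraries with a light chain ratio under 0.1, at 310 and 446 CPM in the pair with both light chains, and at 226 to 263 CPM in the 4 with Myl2 over 10 times Myl7. Npr3 was at 320 to 693 CPM in the first of these sets and at 45.8 to 81.6 CPM in the last. Of the pair, SHR replicate 2 lay between at 165 CPM, while ARB replicate 3, at 64.5 CPM, lay within the last range. Furin ranged from 144 to 198 CPM in the first set and from 99.5 to 127 CPM in the last, with 141 and 148 CPM between. Nppb was at 557 to 1470 CPM in the first set and at 38.5 to 265 CPM in the last. Npr2 took no such order: it was at 42.5 to 64.5 CPM in the first set, at 37.3 and 56.5 CPM in the pair and at 61.9 to 69.8 CPM in the last, with the outer ranges overlapping. These sets were made from the marker genes after the libraries were read and are not groups of the study, and what part the markers have in the differences above was not tested.

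**Figure D4:**
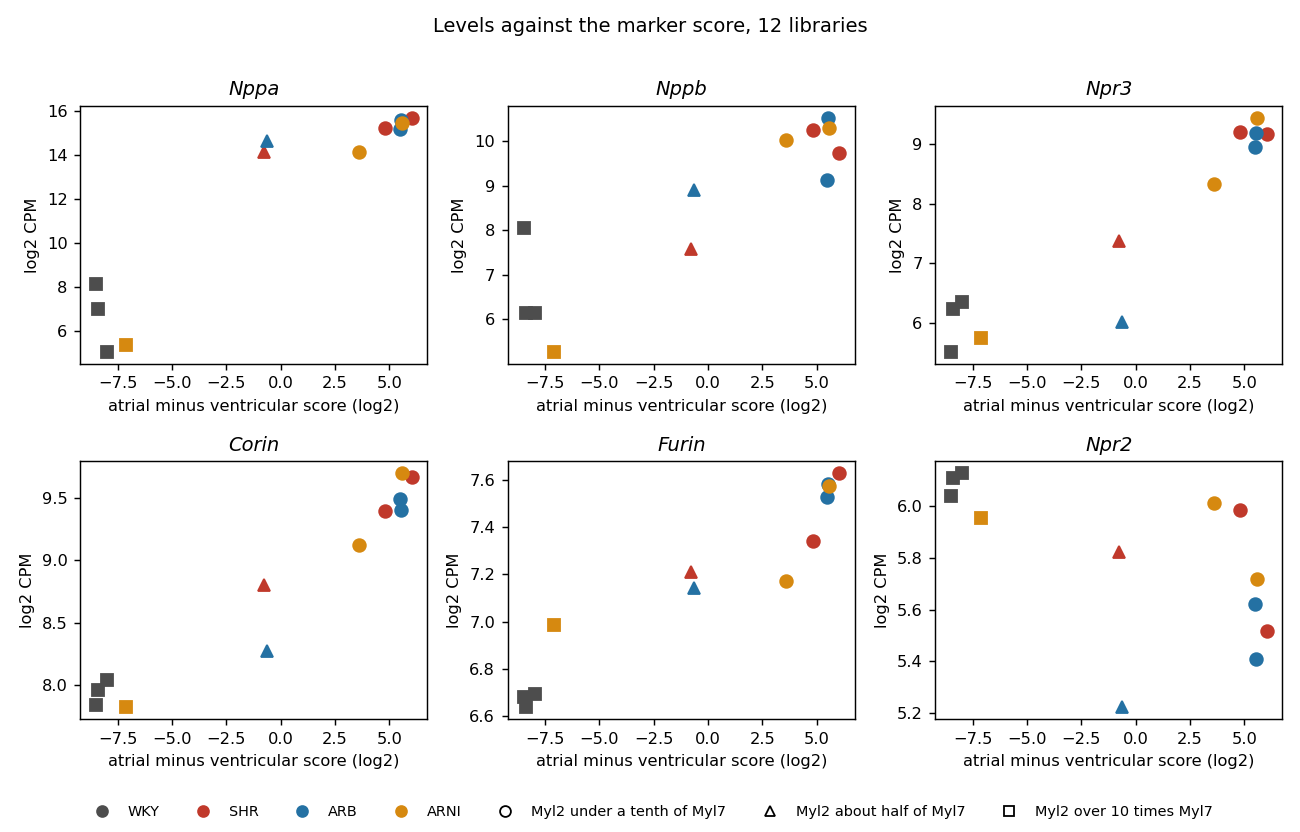
Log2 CPM of Nppa, Nppb, Npr3, Corin, Furin and Npr2 (vertical axes) in each library against its atrial minus ventricular marker score (horizontal axes, difference of mean log2 CPM), coloured by group, with marker shape for the ratio of Myl2 to Myl7. The 3 WKY libraries and ARNI replicate 2 lie at scores of -8.49 to -7.10, SHR replicate 2 and ARB replicate 3 at -0.77 and -0.64, and the other 6 at 3.61 to 6.03.

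The treatments were compared with saline in SHR. Against SHR, no gene was called by edgeR for ARB among 13979 tested (0%) and 0 of 7 members of the system passed. At an unadjusted p below 0.05 there were 225 genes, and DESeq2 called 3. Nppa stood at 49537, 37638 and 25473 CPM in ARB, within the span of SHR. Its log2 fold change was 0.07, with a 95% interval from -1.02 to 1.16. Furin, at 192, 185 and 141 CPM, differed by 0.05 (-0.35 to 0.45), and Npr3, at 582, 493 and 64.5 CPM, by -0.20 (-2.03 to 1.64), the widest interval of the 7. Nppb at 1470, 557 and 479 CPM gave 0.22 (-1.42 to 1.86), and Corin at 678, 720 and 310 CPM gave -0.16 (-0.98 to 0.65). Npr1 at 38.8, 39.5 and 31.7 CPM gave -0.18 (-0.54 to 0.18), and Npr2 at 42.5, 49.2 and 37.3 CPM gave -0.33 (-0.68 to 0.01). Libraries of both groups overlapped for all 7 genes, where 5.39% of all genes did not overlap. Limited to the 4 libraries with a light chain ratio under 0.1 (2 in each group), Npr3 differed by -0.08 (-0.51 to 0.35) and Corin by -0.07 (-0.52 to 0.37).

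For ARNI against SHR, edgeR called no gene among 13955 (0%), 227 genes had an unadjusted p below 0.05, and DESeq2 called 7. In ARNI the libraries disagreed. Nppa was at 45679, 40.8 and 18042 CPM, Nppb at 1263, 38.5 and 1038 CPM, and Npr3 at 693, 54.1 and 320 CPM. Replicate 2, the library with atrial markers near 0, was the lowest each time. The intervals were correspondingly wide, at -4.78 to 3.26 around -0.76 for Nppa, -2.65 to 2.84 around 0.10 for Nppb and -2.35 to 1.82 around -0.27 for Npr3. Corin, at 832, 226 and 557 CPM, gave -0.21 (-1.29 to 0.87), and Furin, at 190, 127 and 144 CPM, gave -0.07 (-0.50 to 0.37). Npr1, at 41.2, 34.7 and 46.3 CPM, differed by 0.02 (-0.37 to 0.40), and Npr2, at 52.6, 61.9 and 64.5 CPM, by 0.20 (-0.22 to 0.62). Limited to libraries with a light chain ratio under 0.1, which leaves out ARNI replicate 2 and SHR replicate 2, Nppa differed by -0.48 (-1.85 to 0.89), Nppb by 0.21 (-0.42 to 0.84) and Npr3 by -0.14 (-1.18 to 0.90). No member was free of overlap between the groups, against 6.56% of all genes. Groups of this size leave sizeable differences in either direction within the intervals, and a p that misses the limit does not show equality.

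Against ARB, edgeR called no gene for ARNI among 13948 (0%), with 539 genes at an unadjusted p below 0.05 and 18 called by DESeq2. Npr2 was the member whose libraries did not overlap: it was at 52.6, 61.9 and 64.5 CPM in ARNI and at 42.5, 49.2 and 37.3 CPM in ARB. Its log2 fold change was 0.54 (interval 0.18 to 0.90), with an unadjusted p of 0.0103 in edgeR and an adjusted p of 0.993. In all, 10.5% of genes did not overlap in this comparison (3% with ARNI higher). The remaining genes of the system differed by -0.82 (Nppa, interval -4.69 to 3.06), -0.11 (Nppb, -2.65 to 2.44), 0.21 (Npr1, -0.09 to 0.50), -0.06 (Npr3, -2.46 to 2.34), -0.04 (Corin, -1.21 to 1.13) and -0.11 (Furin, -0.55 to 0.33), with overlap throughout. Limited to libraries with a light chain ratio under 0.1, Npr2 differed by 0.37 (-0.00 to 0.75). The ARB and ARNI doses are those of the study and are set side by side as groups. They differ in stated mass, but the share of valsartan in the ARNI dose was not given in the sources used here. Whether the valsartan doses matched is therefore not known here. Both treatment comparisons use the same SHR libraries.

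Beyond the 8 genes, 51 genes of the surrounding pathway were listed, of which 42 were tested in SHR against WKY. Of these, 5 were DEGs higher in SHR and 3 were DEGs lower, against 5.54% and 3.35% of all genes tested. A further 6 passed the limit on p alone. Of all genes tested, 20.6% passed that limit, DEGs included. In each of the other 3 comparisons 0 of the 43 tested passed. Of 13 transcription factors known to act at the Nppa and Nppb promoters, Tbx5 rose by 2.88 on the log2 scale (edgeR adjusted p = 0.00316). Tbx5 is a T-box factor of the atria and left ventricle. It was at 33.4, 32.8 and 31.0 CPM in WKY and at 352, 164 and 277 CPM in SHR. ARNI replicate 2 held 33.4 CPM of Tbx5, and ARB replicate 3 held 130 CPM. Nkx2-5 (0.58, edgeR adjusted p = 0.0329) and Tbx20 (0.69, edgeR adjusted p = 0.0218) passed the limit on p alone. In ARNI replicate 2, Tbx20 was at 90.7 CPM, against 83.0 to 101 CPM in WKY. Nkx2-5 in that library, at 149 CPM, lay between the ranges of WKY and SHR. Gata4 and Gata6 gave 0.20 and 0.21 and did not pass (edgeR adjusted p = 0.177 and 0.226). Tead1, a TEAD factor, and Tbx3 were the members of the list with negative values, -0.42 (interval -0.71 to -0.13, edgeR adjusted p = 0.053) and -0.44 (-2.04 to 1.16, edgeR adjusted p = 0.656), and did not pass either. Over the list the median log2 fold change was 0.26, against 0.01 for all genes tested.

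Pam, the enzyme that amidates peptides and the main membrane protein of atrial secretory granules, was at 1487, 1549 and 1695 CPM in WKY. SHR libraries had 11549, 5216 and 10201 CPM. For Pam the log2 fold change was 2.36 (edgeR adjusted p = 0.00738), and ARNI replicate 2 held 1283 CPM. Scg5, the helper protein 7B2 of a prohormone convertase, gave 2.52 (edgeR adjusted p = 0.0349) at 0.348 to 0.682 against 1.02 to 5.01 CPM. Rab3a, a regulator of vesicle release, gave 0.23 and did not pass, and Chga, Chgb, Scg2 and Scg3 had too few reads to be tested. Among the other convertases, Pcsk6, the PACE4 protease that is known to activate corin, was lower at -0.75 (edgeR adjusted p = 0.0129). Pcsk6 was at 168 to 196 CPM in WKY, 105 to 137 CPM in SHR and 227 CPM in ARNI replicate 2. Pcsk5 gave 0.32 and Pcsk7 gave -0.25, neither past the limit, and Pcsk1 and Pcsk2 were not tested.

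Mme encodes neprilysin, the target of sacubitril. It was read at 2.30, 2.09 and 2.40 CPM in WKY. SHR libraries held 0.201, 0.394 and 1.22 CPM, all lower, and the log2 fold change of Mme was -2.03 (edgeR adjusted p = 0.0450). The lowest of these values, in SHR replicate 1, is 3 reads, so the call rests on levels close to the limit of detection. ARNI replicate 2 held 1.73 CPM of Mme, between the ranges of SHR and WKY. The highest levels of Mme were in ARNI replicate 3 (6.99 CPM) and ARB replicate 2 (4.13 CPM), which were also the libraries highest in adipocyte markers, and the part of those cells was not tested. Of the other peptidases, Ide gave -0.24, Ece1 0.84 and Dpp4 -0.43, none past the limit, and Ostn, whose peptide competes for NPR3, was not tested.

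Of the genes that act on cyclic GMP, Prkg2, cyclic GMP-dependent protein kinase 2, had no read in any WKY library and 4.95, 1.42 and 4.40 CPM in SHR. Against 3 reads in a WKY library the SHR mean of Prkg2 was at least 13.5-fold higher, and the lowest SHR library at least 5.32-fold higher. These bounds were not tested themselves. The edgeR test of SHR against WKY gave Prkg2 an adjusted p of 0.0166, and ARNI replicate 2 also had no read of it. The subunits of soluble guanylyl cyclase, the nitric oxide receptor that also makes cyclic GMP, moved apart. Gucy1a1 gave 0.82 (edgeR adjusted p = 0.0217) and Gucy1b1 gave -0.69 (edgeR adjusted p = 0.0163). In ARNI replicate 2, Gucy1a1 was at 29.1 CPM, below the 31.8 to 38.4 CPM of WKY. Gucy1b1 in that library was at 10.1 CPM, below the 10.3 to 11.4 CPM of SHR. Prkg1, the kinase of smooth muscle, gave 0.31, and the phosphodiesterase genes Pde2a, Pde3a, Pde5a and Pde9a gave -0.06, -0.34, -0.38 and -0.63, none past the limit. Of genes of load and hypertrophy, Edn1, which encodes endothelin 1, gave 1.62 (edgeR adjusted p = 0.0342). Acta1 and Myh7, which in adult rat heart are taken as genes of hypertrophy, were lower, with log2 fold changes of -3.91 and -4.65 (edgeR adjusted p = 0.0352 and 0.0275). Myh7 is also on the list of ventricular markers, at 32130 to 32744 CPM in WKY against 357 to 3319 CPM in SHR.

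**Figure D5:**
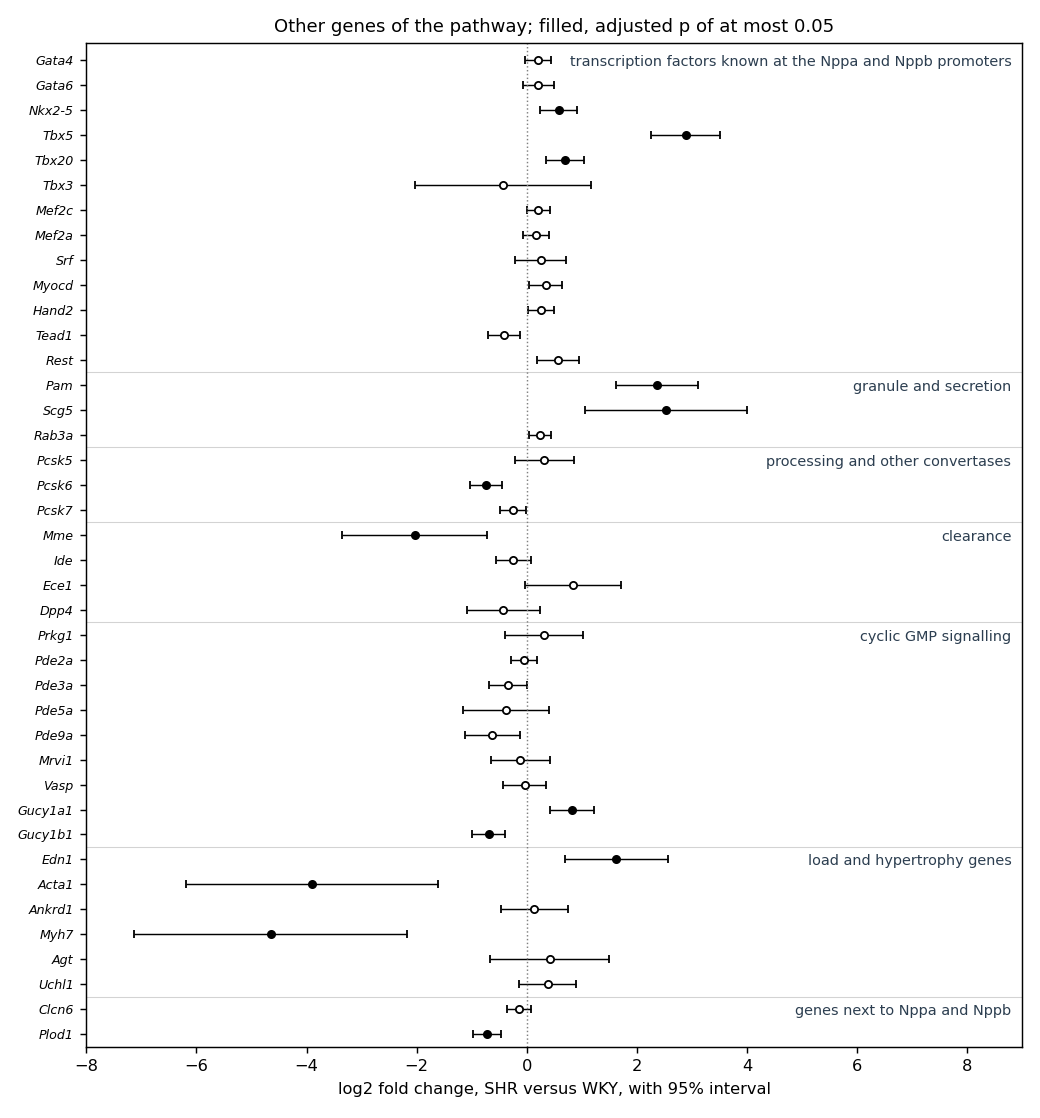
Log2 fold changes of SHR versus WKY (horizontal axis) with 95% intervals for tested genes of the surrounding pathway, grouped by list. Tbx5, Pam, Scg5 and Edn1 lie above 1 and Mme, Acta1 and Myh7 below -1 among the DEGs; Prkg2 is not drawn because WKY libraries had no read of it.

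Genes beside Nppa and Nppb on the chromosome did not rise with them. Clcn6, the next gene after Nppa, was at 20.4 to 30.3 CPM in all 12 libraries, with a log2 fold change of -0.15 (edgeR adjusted p = 0.267). Plod1 gave -0.73 (edgeR adjusted p = 0.0101). Whether counting used strand was not given in the sources used here.

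Up to 3 genes whose log2 CPM was most like that of each member over the 12 libraries were taken among 10970 genes with a mean of at least 5 CPM, as a description. For Nppa these were Stard10 (Pearson r = 0.988), Cacna1g, a T-type calcium channel (0.986), and Bbip1 (0.982). Nppb was followed by Gmip (0.955), Ctsl (0.953) and Creb3 (0.952). Npr3 was most like Atf6 (0.989) and Tm9sf4 (0.986). For Corin they were Zfp219 (0.992), Kcnj3, a subunit of the atrial acetylcholine-gated potassium channel (0.989), and Sec23a (0.989). Furin was most like Cdc25a (0.982), Mllt1 (0.980) and Ddr1 (0.978). Npr1 had Cdr2l (0.936), Tlcd4 (0.935) and Uaca (0.933), and Npr2 had Zfyve9 (0.948), Ppfia1 (0.944) and Scn1a (0.941). Corin and Npr3 correlated with each other at 0.984. All of these r values are across 12 libraries that differ in chamber markers, and the libraries fall into separate sets by those markers, so they carry no p.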

How the data were processed

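Poly(A) RNA of 12 rat heart samples labelled as left atrium was sequenced as single reads. Per the labels and the submitters' processing notes, the authors filtered reads with SOAPnuke 1.5.2, aligned them with HISAT2 2.0.4 and Bowtie2 2.2.5 (the notes name the build Rnor 6.0), and deposited, without normalization, the expected counts that RSEM 1.2.12 gave for each gene. The deposited table also holds 2 columns of the authors' own comparison, a log2 fold change and a p-value, which were not used. It lists 37246 genes, of which 21239 have counts, and 23.6% of these values are not whole, since RSEM shares reads between like transcripts; of the 8 genes described only Npr3 had such values.

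Groups followed the library name in brackets. CPM is the expected count per 1000000 of the library total. Counts were rounded, filtered with filterByExpr and scaled by TMM, and each pair of groups (6 libraries) was tested with edgeR 4.0.16 (quasi-likelihood test) in R 4.3.3, with Benjamini-Hochberg adjustment over all genes tested. A DEG had a log2 difference of 1 or more in size with an adjusted p not above 0.05. Standard errors and 95% intervals came from the F statistic. The fitting code was tested on simulated counts. Ratios of reads were tested by exact permutation (Python 3.11.15). Alternatives were DESeq2 1.42.0, RLE size factors, no scaling, no filter, all 12 libraries in 1 fit, a block for the replicate number, a covariate of 7 atrial and 5 ventricular markers, and libraries left out. Leaving out each library in turn was planned, and singling out the fits without SHR replicate 2 or ARNI replicate 2 for their markers came after seeing the data. The labels give no batch, and p-values measure the spread between the 3 libraries of a group.

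Replicate numbers were checked as pairs: the deviations of same-numbered libraries from their group means correlated at 0.61, 0.60 and 0.26 for ARNI and SHR, but at 0.02, -0.09 and -0.12 for SHR and WKY, at 0.49, -0.36 and -0.33 for ARB and SHR, and at 0.64, -0.50 and -0.14 for ARNI and ARB. Promoters came from RefSeq (GRCr8). Gene names were the deposited symbols, and 19467 identifiers (91.7%) were found in the GRCr8 gene table, used for which genes are neighbours. The genes of the system, the pathway and marker lists and the limit on Myl2 were chosen with earlier results of these data known. Genes named were the 8 of the system, list genes past the DEG thresholds or in the lists of convertases and clearance, further genes of the lists with their values, and the genes most like each of the 8 (up to 3 each). Some items that these rules name are not reported here. Levels were not compared between genes, because lengths were not at hand.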

Additional observations from a re-analysis of the deposited data

How the results depend on the processing

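The count of DEGs between SHR and WKY, 1226, was 579 in 1 fit of all 12 libraries, 681 with the replicate block, 95 with the marker score as covariate, and 348 to 2205 with single libraries left out (348 without WKY replicate 3, 353 without WKY replicate 2, 393 without WKY replicate 1, 577 without SHR replicate 1, 2205 without SHR replicate 2). DESeq2, RLE size factors, no scaling and no filter gave 1601, 1247, 1348 and 1239; without scaling 985 of the 1348 were higher in SHR, against 764 of 1226, and the median of all genes moved from 0.01 to 0.15. No gene was called in the other comparisons in any fit with a library left out; DESeq2 called 3 (ARB versus SHR), 7 (ARNI versus SHR) and 18 (ARNI versus ARB), and the covariate fit called 0, 1 and 1.

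Signs turned for log2 fold changes near 0 or with the covariate. With the marker score as covariate these were, for SHR versus WKY, Corin -0.28, Nppb -1.96, Npr1 -0.15 and Npr3 -1.04, for ARNI versus SHR, Corin 0.016, Furin 0.0094 and Npr3 0.15, and for ARNI versus ARB, Corin 0.23 and Npr3 0.58. Limited by light chain ratio they were Nppa -0.052 (ARB versus SHR), Npr1 -0.00056 (ARNI versus SHR), and Nppb 0.18 and Corin 0.015 (ARNI versus ARB). Without scaling Npr1 was -0.061 in ARNI versus SHR. The replicate block gave Nppb -0.54 and Nppa -2.19 in ARNI versus SHR and changed no call there. In that comparison the deviations of same-numbered libraries correlated at 0.26 to 0.61. Replicate 2 had the lowest marker score in both groups, at -7.10 in ARNI and -0.77 in SHR. Whether the numbers stand for pairs was not tested. In SHR versus WKY, where the correlations were -0.12 to 0.02, the block took the calls of Npr2, Npr3 and Furin. The cause of these changes was not tested.

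With single libraries left out, values that turned sign ranged from -0.13 to 0.14 for Npr1 in SHR versus WKY. In ARB versus SHR they ranged from -0.24 to 0.47 for Nppa, -0.48 to 0.69 for Nppb, -0.68 to 0.30 for Npr3, -0.34 to 0.11 for Corin and -0.032 to 0.18 for Furin. In ARNI versus SHR they were -0.45 to 0.67 for Nppb, -0.068 to 0.17 for Npr1, -1.19 to 0.24 for Npr3, -0.65 to 0.13 for Corin and -0.22 to 0.059 for Furin. In ARNI versus ARB they were -0.67 to 0.59 for Nppb, -0.99 to 0.44 for Npr3 and -0.49 to 0.29 for Corin. None of these passed the limit. Nppa of SHR versus WKY stayed between 7.34 and 8.69. Depth limits Nppc, whose counts do not exceed 12 reads.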
